A study of Mus musculus with 34 samples.

Results

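Transcription factors known as regulators of the mesenchymal gene programme of brain tumours were followed in mouse neural stem cells carrying STAT3 and CEBPB vectors: Stat3, Cebpb, Cebpd, Fosl2, Runx1, Bhlhe40 (older symbol Bhlhb2) and Zbtb18 (older symbol Zfp238). They were taken by name with every probe that the array holds for them, which gave 7 genes of 19057 and 17 probes of 34885 with 1 gene symbol. RNA came from the mouse neural stem cell line C17.2, which is immortalised, and from primary neural stem cells (NSC) of the telencephalon of embryos at day 13.5. In each cell type the 4 groups carried the empty retroviral vector pBabe (control), STAT3C (a constitutively active mutant of STAT3), CEBPB, or STAT3C and CEBPB together. There were 4 arrays in each C17.2 group, and in NSC 5 with both vectors, 5 with the control vector and 4 with each single factor. The source field of the NSC arrays with both vectors names STAT3 and 2 further fields name STAT3C, so they were taken as STAT3C. All groups had therefore been infected with a retrovirus, and the labels name no promoter, clone or infected share of the cells. Which arrays stem from different cultures is not in the labels, so the spread behind each p-value is that among arrays and may be technical.

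STAT3 is a factor of the response to cytokines that is activated by Janus kinases and enters the nucleus as a dimer. The C/EBP factors, encoded by Cebpb and Cebpd, bind DNA as leucine-zipper dimers and act with STAT3 in the acute-phase response, and in glioma STAT3 and C/EBPβ are known as initiators of the mesenchymal state. Fosl2 (an AP-1 subunit), Runx1 (a RUNX factor best known from blood) and Bhlhe40 (a helix-loop-helix repressor of the hypoxia and clock pathways) were placed beside them in the module, and Zbtb18, a zinc-finger repressor of neural development, was placed there as its negative regulator.

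The windows of 300 bases around the start sites (250 before, 50 after) are shown because the vectors encode a STAT and a C/EBP factor, whose motifs were searched there. RefSeq windows of GRCm38.p6 were held for 5 of the 7 genes, in all 10 windows, namely Stat3, Cebpb, Fosl2, Runx1 (2 windows) and Zbtb18 (5 windows). Cebpd and Bhlhe40 had no entry. The motifs were TTCNNNGAA (STAT), TTNNGNAA (C/EBP), TGANTCA (AP-1), TGTGGT (RUNX), CACGTG (E-box) and CATCTG (ZBTB18), each on both strands. Of the 32851 promoter windows, 8.3%, 40.7%, 7.8%, 16.8% and 7.2% held the first 5 of these motifs, and 5635 windows held CATCTG. Capitals mark the matches to any of them, and no matches overlapped one another.
Stat3, chr11:100939491-100939790, minus strand: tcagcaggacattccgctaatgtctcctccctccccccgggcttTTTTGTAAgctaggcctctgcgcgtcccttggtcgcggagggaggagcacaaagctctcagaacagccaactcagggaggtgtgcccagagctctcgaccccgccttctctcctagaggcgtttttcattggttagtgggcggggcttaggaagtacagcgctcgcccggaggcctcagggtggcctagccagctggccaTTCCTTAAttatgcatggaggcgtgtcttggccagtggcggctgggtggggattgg
Runx1, upstream window, chr16:92826025-92826324, minus strand: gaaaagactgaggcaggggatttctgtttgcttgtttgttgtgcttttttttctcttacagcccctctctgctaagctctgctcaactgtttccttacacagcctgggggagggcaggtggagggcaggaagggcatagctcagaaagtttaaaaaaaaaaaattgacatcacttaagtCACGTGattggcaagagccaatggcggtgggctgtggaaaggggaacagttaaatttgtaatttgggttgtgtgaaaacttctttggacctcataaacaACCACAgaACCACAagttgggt
Zbtb18, first window, chr1:177442101-177442400, plus strand: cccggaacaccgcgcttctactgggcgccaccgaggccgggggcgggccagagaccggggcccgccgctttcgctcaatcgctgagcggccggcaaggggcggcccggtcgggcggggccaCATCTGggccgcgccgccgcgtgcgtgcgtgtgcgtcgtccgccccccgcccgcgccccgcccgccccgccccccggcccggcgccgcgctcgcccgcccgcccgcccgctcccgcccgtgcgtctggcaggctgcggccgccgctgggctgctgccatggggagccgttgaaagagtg
Zbtb18, last window, chr1:177445571-177445870, plus strand: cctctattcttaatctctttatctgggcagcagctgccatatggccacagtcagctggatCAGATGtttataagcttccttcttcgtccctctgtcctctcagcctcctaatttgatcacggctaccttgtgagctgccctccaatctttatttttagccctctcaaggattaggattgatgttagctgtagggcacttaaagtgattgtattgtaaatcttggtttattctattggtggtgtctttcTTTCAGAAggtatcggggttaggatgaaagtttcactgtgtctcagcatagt
The Stat3 window held 2 C/EBP matches and no STAT match. The upstream Runx1 window held 1 E-box match before the start site and 2 RUNX matches after it. Each of the 5 Zbtb18 windows held 1 CATCTG, the motif of its own protein, and 3 of these windows overlap one another, so a match can count in more than 1 of them. The last Zbtb18 window also held 1 C/EBP match, and 2 of the overlapping windows held 1 RUNX match each. None of the 6 motifs was found in the windows of Cebpb (chr2:167688665-167688964, plus strand), Fosl2 (chr5:32136222-32136521, plus strand) and the downstream Runx1 window (chr16:92697280-92697579, minus strand), which says only that these letters are not in those windows. No binding was measured in this study, and a match is a description of the letters.

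Of the 17 probes, 12 passed the detection filter in C17.2, 13 in NSC and 14 over all 34 arrays, and every one of the 7 genes kept at least 1 probe in each fit. Stat3 has 3 probes, which all passed. Cebpb and Bhlhe40 have 1 probe each. Cebpd probe ILMN_2588570 was detected on no array, and Runx1 probe ILMN_2619773 was detected on 2 of the C17.2 arrays with both vectors and nowhere else. Fosl2 probe ILMN_2768924 was detected on no array, and Fosl2 probe ILMN_2718801 on 1 C17.2 control, 2 NSC control and 1 NSC STAT3C array. Of the 5 Zbtb18 probes, ILMN_3049032 was detected on no C17.2 array. A member's difference is given from its probe with the highest mean over the arrays (ILMN_2698046 for Stat3, ILMN_2707363 for Cebpd, ILMN_1252481 for Fosl2, ILMN_2589107 for Runx1 and ILMN_2459155 for Zbtb18), with its other probes beside it. The transcript region that each probe reads is not given in the sources used here, so the Stat3 and Cebpb probes may or may not read the transcript of the vectors.

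Levels are log2 intensities after background correction and quantile normalisation, and SE is the standard error of a difference between group levels on that scale. C17.2 arrays detected 33.8% to 35.9% of all probes and NSC arrays 36.3% to 41.7%, and a member probe was read from 19 to 71 beads on an array. Across probes, which are no replicates, the lowest correlation between arrays of a group was 0.9205 in C17.2 and 0.929 in NSC. Of 13 neural stem cell markers on the array, 9 (Nes, Sox2, Vim, Fabp7, Sox9, Hes1, Slc1a3, Notch1 and Olig2) were detected on every NSC array, and 5 (Nes, Sox2, Vim, Sox9 and Hes1) on every C17.2 array. Fabp7 and Olig2 were detected on no C17.2 array. Msi1 and Pax6 were detected on no array of either cell type, and Hes5 on 2 of 18 NSC arrays and no C17.2 array. Of 8 microglia and macrophage markers none was detected on every array of a cell type. In NSC, Aif1 was detected on 16 of 18 arrays, Csf1r on 14 and Itgam on 4, and the others on none. In C17.2, Aif1 was detected on 5 of 16 arrays and Csf1r on 1, and the others on none. Replicate 4 of each NSC group, all on slide 6, read the Xist probe at -7.68 to 12.2 signal units against 532 to 2050 on the other NSC arrays, so these arrays stand apart, and the member differences in NSC are given with and without them. The 4 C17.2 controls lie alone on slide 1, so in C17.2 a slide effect and a vector effect cannot be told apart against control. NSC fits held slide as a term, and slide 6 alone holds all 4 NSC groups. The NSC contrasts of CEBPB and of both vectors with control therefore rest on slide 6, which holds 2 controls, 2 arrays with both vectors and 1 array with each single factor. Of these, control 5 and replicate 5 of both vectors have Xist signal (660 and 1181 units), and the other 4 lack it. The slide term does not take up this difference, so the single-factor arrays of slide 6 are set against controls of both kinds.

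All 7 regulators were called as different between the cell types when both carried the empty vector, though the Cebpd call was lost in several alternatives. Cebpb, Fosl2 and Runx1 were higher in C17.2 controls than in NSC controls, and Stat3, Cebpd, Bhlhe40 and Zbtb18 were lower. The differences ran from 1.71 (Fosl2) down to -2.94 (Bhlhe40). In this comparison 11 of the 14 member probes tested were called at an adjusted p below 0.05 (limma, Benjamini-Hochberg over 18919 probes), against 53.5% of all probes, and the controls of the cell types did not overlap for 8 of the 14, against 36.0%. Without the 4 NSC arrays that lack Xist, 10 of the 14 were called. Every C17.2 array lacks Xist signal too (-15.9 to -0.944 units). After that omission all NSC controls have Xist signal and no C17.2 control has it, so Xist signal and cell type cannot be told apart. Each slide holds 1 cell type, so slide and cell type cannot be told apart.

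The joint levels of Stat3 were 9.80, 9.67, 9.65 and 9.33 on the C17.2 control arrays and 11.14, 11.04, 10.06, 10.84 and 10.19 on the NSC control arrays. Every C17.2 control lay below every NSC control, and NSC controls 3 and 5 stood below the other NSC controls. The difference was -1.04 (SE 0.27, adjusted p = 0.00192, limma), and the other Stat3 probes gave -1.28 (SE 0.24) and -1.31 (SE 0.24), without overlap. Cebpb read 9.53, 9.68, 10.28 and 10.06 in C17.2 controls and 8.04, 8.21, 8.85, 8.49 and 8.95 in NSC controls. Its C17.2 arrays were all above its NSC arrays, by 1.38 (SE 0.22, adjusted p = 5.28e-06, limma). Cebpd read 8.12, 7.98, 7.84 and 8.11 in C17.2 controls and 8.74, 8.71, 8.26, 8.50 and 8.06 in NSC controls. The groups overlapped at NSC control 5, and the difference of -0.44 (SE 0.18, adjusted p = 0.0361, limma) lost its call without NSC control 1 (-0.37, adjusted p = 0.101), and likewise without NSC control 2 or 4 or without C17.2 control 2 or 3. Without the 4 NSC arrays that lack Xist the Cebpd difference was -0.43 (adjusted p = 0.0649, limma).

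Fosl2 read 8.84, 8.69, 8.87 and 8.76 in C17.2 controls and 6.60, 6.41, 8.05, 6.92 and 7.42 in NSC controls. The C17.2 arrays lay within a narrow band above all NSC arrays, of which control 3 was the highest, and the difference was 1.71 (SE 0.33, adjusted p = 8.77e-05, limma). Runx1 read 7.18, 7.16, 7.34 and 7.27 in C17.2 controls and 5.96, 5.96, 7.37, 4.78 and 4.81 in NSC controls. Controls 4 and 5 of NSC did not detect Runx1, and NSC control 3 reached above the C17.2 arrays, so the groups overlapped. The Runx1 difference was 1.46 (SE 0.25, adjusted p = 1.91e-05, limma) with slide as a term within NSC, and 1.46 (SE 0.46, adjusted p = 0.00939) without it.

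Bhlhe40 showed the widest gap of the members. It read 7.78, 6.22, 7.40 and 7.48 in C17.2 controls and 10.52, 10.23, 9.14, 10.53 and 10.39 in NSC controls. The lowest NSC control, control 3, was still above the highest C17.2 control, and the difference was -2.94 (SE 0.44, adjusted p = 2.06e-06, limma). Zbtb18 read 6.90, 6.83, 6.40 and 6.20 in C17.2 controls and 8.55, 8.42, 7.40, 8.05 and 7.63 in NSC controls. All C17.2 controls were below all NSC controls, by 1.43 on the log2 scale (difference -1.43, SE 0.22, adjusted p = 4.12e-06, limma). Probe ILMN_3124947 of Zbtb18 gave -1.94 (SE 0.17), also without overlap. Probe ILMN_3049032, at background on all 4 C17.2 controls and detected on 4 of 5 NSC controls, was at least 1.32-fold higher in NSC. Its probes ILMN_2445848 (-0.22, SE 0.16) and ILMN_2450147 (0.25, SE 0.15) were not called, so the size of the Zbtb18 difference depended on the probe.

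**Figure D1:**
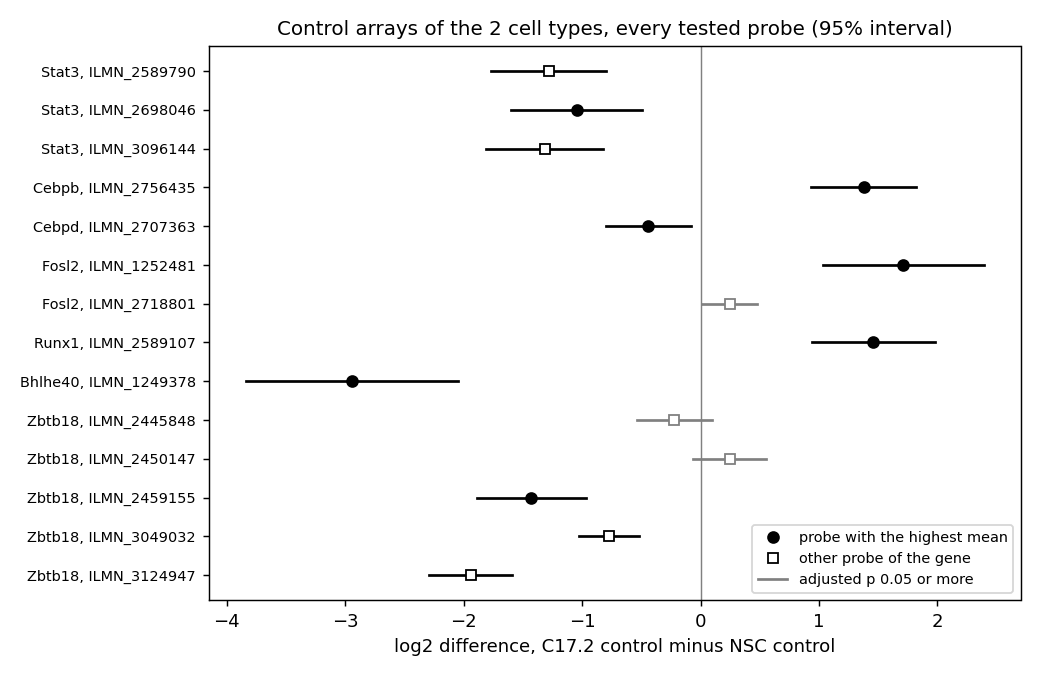
Log2 difference between the C17.2 and the NSC control arrays (x axis) for each of the 14 tested probes of the 7 regulators (y axis), with bars of the 95% confidence interval. Cebpb, Fosl2 and Runx1 lie to the right of 0, Stat3, Cebpd, Bhlhe40 and 4 of the 5 Zbtb18 probes to the left, and 3 probes in grey (2 of Zbtb18 and 1 of Fosl2) were not called.

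Relatives and partners of the 7 genes, in lists written from general knowledge, also differed between the controls. Over all 11713 genes tested, at 1 probe a gene, 3169 were higher in C17.2 and 3255 lower, with a median difference of -0.01. Of 11 tested genes upstream of STAT3, 2 were higher and 5 lower, with a median of -0.56. Egfr, a growth factor receptor that signals to STAT3, was at background on all C17.2 controls and at least 53.3-fold higher in NSC, and Jak1, a kinase of the cytokine receptors, was at least 6.80-fold higher in NSC. Jak2, the kinase beside it, differed by -2.31 (SE 0.16). Of 10 inhibitors of STAT3, 3 were higher and 4 lower, with a median of 0.03, and Cish, an inhibitor of cytokine signalling, differed by -1.33 (SE 0.28). Of 4 other STAT genes tested, 2 were higher and 2 lower (median 0.54), with Stat6 at least 5.38-fold and Stat5a at least 2.05-fold higher in C17.2. Among 6 AP-1 relatives of Fosl2, 2 were higher and 1 lower (median -0.30), with Junb at 1.24 (SE 0.24) and Fos at -1.26 (SE 0.40). Cbfb, the binding partner of Runx1, differed by -1.18 (SE 0.18), opposite in sign to Runx1. Hey1, a helix-loop-helix repressor like Bhlhe40, differed by -3.60 (SE 0.51), and 0 of the 4 tested genes of its list were higher and 2 lower (median -0.76). Among 7 ZBTB relatives of Zbtb18, 2 were higher and 2 lower (median 0.21). Of 3 C/EBP relatives 1 was higher and 1 lower (median 0.19), and of 2 RUNX relatives 1 was higher and 1 lower (median 0.15). Of 18 STAT3 targets 5 were higher and 5 lower (median -0.33), and of 11 C/EBP targets 5 were higher and 3 lower (median 0.89). Of 37 tested mesenchymal glioma genes, 30 were higher in C17.2 and 2 lower, with a median of 2.42. All 37 passed the detection filter in C17.2 alone, and 32 in NSC alone. The rest, Mgp among them, entered through C17.2, so their direction was largely set by the filter and is no test. Of 8 fibroblast and pericyte markers on the array 4 were tested, of which 3 were higher in C17.2 and none lower (median 2.53). Pdgfrb, Col1a1 and Mgp were detected on no NSC array and Col3a1 on 2 of 18. They passed the detection filter through C17.2, so their direction was largely set by the filter and is no test. The summed signal of the list was 484 to 951 in C17.2 controls and 7.62 to 67.0 in NSC controls, with Lum and Rgs5 on no C17.2 control. Of 9 neural stem cell markers tested, 0 were higher in C17.2 and 5 lower (median -2.15), their summed signal was 7625 to 11170 in C17.2 controls and 26671 to 38033 in NSC controls, and Slc1a3, a glutamate transporter, was at least 431-fold higher in NSC. Of 7 astrocyte markers, 0 were higher and 4 lower (median -0.91), with a summed signal of 3607 to 5215 in C17.2 controls and 6009 to 9799 in NSC controls. Gfap and S100b, like Fabp7 and Olig2 of the neural stem cell list, were detected on no C17.2 array. Aqp4 was detected on 1 of 16 C17.2 arrays, and Slc1a2 and Aldoc on 3 each, fewer than the 4 that the filter needs. All of these passed the filter through NSC, so their direction was largely set by the filter and is no test. In the fit of C17.2 alone 2 of the 7 astrocyte markers passed it. Among 5 endothelial markers 1 was higher and 2 lower, among 5 oligodendrocyte lineage markers 1 was higher and 2 lower, among 4 neuron markers 0 were higher and 2 lower, and of 3 microglia and macrophage markers none was called. The part of these markers in the differences of the regulators was not tested.

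In C17.2 no probe of the 7 regulators was called in any of the 6 comparisons between vectors (limma, Benjamini-Hochberg over 15148 probes). At an unadjusted p below 0.05 there were 1, 1 and 5 of the 12 member probes for STAT3C, CEBPB and both vectors against control, where 12.4%, 22.3% and 17% of all probes were found. The share of all probes called was 0.00660% for STAT3C against control, 1.43% for CEBPB against control and 0.647% for both vectors against control. It was 0.198% for both vectors against STAT3C alone, and against CEBPB alone it was 0%, with 3.99% at an unadjusted p below 0.05 (limma). Arrays of the compared groups did not overlap for 5, 2 and 2 of the 12 member probes, against 8.15%, 13.9% and 8.24% of all probes in either direction. Of the 7 members, 6 had a difference above 0 with STAT3C, 5 with CEBPB and 5 with both vectors, against 47.8%, 51.0% and 51.0% of all 9699 genes tested, with medians of 0.34, 0.38 and 0.56 against -0.01, 0.01 and 0.01 over all genes tested. The 3 comparisons share their control arrays.

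Stat3, the gene of the first vector, read 9.79, 9.65, 9.63 and 9.29 in C17.2 controls and 10.17, 9.94, 10.04 and 9.91 with STAT3C. With CEBPB it read 9.06, 9.29, 9.01 and 8.91, and with both vectors 8.53, 10.71, 8.45 and 9.32. The STAT3C arrays lay above all controls, the CEBPB arrays lay at or below the lowest control, and the arrays with both vectors were spread on either side, with replicate 2 above all other C17.2 arrays and replicates 1 and 3 below them all. The difference from control was 0.42 with STAT3C (SE 0.35, 95% interval -0.32 to 1.17, adjusted p = 0.641), -0.53 with CEBPB (SE 0.35, adjusted p = 0.391) and -0.34 with both vectors (SE 0.35, adjusted p = 0.649) in limma. The other 2 Stat3 probes moved with it: their STAT3C arrays also lay above all controls, by 0.64 (SE 0.32) and 0.47 (SE 0.32), and the array with both vectors that stood high was the same replicate 2, at 9.57 and 8.02. Without that replicate, Stat3 was lower with both vectors than with STAT3C alone by all 3 probes, with a difference of -1.25 for the main probe (SE 0.20, adjusted p = 0.0202, limma). With it the difference was -0.76 (SE 0.35, adjusted p = 0.523), and no other omission of 1 array gave a call.

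Cebpb, the gene of the second vector, read 9.50, 9.66, 10.31 and 10.07 in C17.2 controls and 9.98, 10.25, 10.72 and 10.09 with CEBPB. Arrays with STAT3C gave 10.57, 10.77, 9.79 and 9.78, and with both vectors 9.91, 10.79, 10.48 and 11.18. All 4 groups overlapped, and 3 of the 4 arrays with both vectors were above the highest control. The differences from control were 0.34 (SE 0.29) with STAT3C, 0.38 (SE 0.29) with CEBPB and 0.70 (SE 0.29, 95% interval 0.08 to 1.33, adjusted p = 0.242, limma) with both vectors. Cebpd, its family relative, read 8.02, 7.87, 7.73 and 8.02 in controls. It read 8.07, 8.06, 8.63 and 8.51 with STAT3C, 8.48, 8.54, 8.08 and 8.33 with CEBPB, and 8.04, 8.95, 8.14 and 9.21 with both vectors. All 12 arrays with a factor lay above all 4 controls, so none of the 3 comparisons overlapped. The differences were 0.41 (SE 0.24, adjusted p = 0.487), 0.45 (SE 0.24, adjusted p = 0.275) and 0.67 (SE 0.24, adjusted p = 0.18) in limma, and none was called. The separation rests on controls that lie alone on their slide.

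Fosl2, the AP-1 subunit, read 8.78, 8.61, 8.81 and 8.69 in controls and 9.05, 9.24, 8.64 and 8.26 with STAT3C. It read 8.09, 7.79, 9.72 and 8.26 with CEBPB and 8.54, 8.86, 7.86 and 9.30 with both vectors. The controls lay close together and every other group reached above and below them, so that the largest difference in size was -0.26 (SE 0.37, with CEBPB). Runx1 read 7.03, 7.01, 7.19 and 7.13 in controls and 7.31, 7.35, 7.62 and 7.28 with STAT3C. With CEBPB it read 7.54, 7.12, 8.19 and 7.38, and with both vectors 7.82, 7.73, 7.44 and 7.60. The STAT3C arrays and those with both vectors were all above the controls, and 1 CEBPB array lay among the controls. The differences were 0.30 (SE 0.19, adjusted p = 0.525), 0.47 (SE 0.19, adjusted p = 0.156) and 0.56 (SE 0.19, 95% interval 0.16 to 0.95, adjusted p = 0.165) in limma. The comparison of both vectors with CEBPB alone gave 0.09 (95% interval -0.31 to 0.48) for Runx1.

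Bhlhe40, the hypoxia-linked repressor, had the largest differences and the widest spread of the members in C17.2. It read 7.66, 6.03, 7.26 and 7.35 in controls and 7.38, 8.27, 9.51 and 8.96 with STAT3C. With CEBPB it read 8.03, 9.43, 7.54 and 8.36, and with both vectors 6.68, 9.83, 9.05 and 8.42. Most arrays with a factor were above the controls, but in each of the 3 groups 1 array lay among them. These were STAT3C replicate 1, CEBPB replicate 3 and replicate 1 of both vectors. On the first principal component over all tested probes (47.5% of the C17.2 variance) they stood at -43.6, -25.6 and -27.2. The controls ran from -52.9 to -24.2 there, and the other arrays with a factor from -23.4 to 49.5. The part of this axis in the Bhlhe40 levels was not tested. The differences were 1.46 (SE 0.61, adjusted p = 0.354), 1.26 (SE 0.61, adjusted p = 0.233) and 1.42 (SE 0.61, 95% interval 0.13 to 2.72, adjusted p = 0.253) in limma. Without replicate 1 of the arrays with both vectors, the Bhlhe40 difference was 2.03 (SE 0.54, adjusted p = 0.0491, limma). This was the only call among 8 omissions of 1 array, over which the difference ran from 0.98 to 2.03. Zbtb18, the repressor, read 6.74, 6.67, 6.22 and 6.01 in controls and 6.41, 5.94, 6.07 and 5.79 with STAT3C. With CEBPB it read 6.44, 6.58, 6.86 and 5.96, and with both vectors 6.73, 6.72, 5.95 and 6.69. All groups overlapped, and the differences were -0.36 (SE 0.23), 0.05 (SE 0.23) and 0.11 (SE 0.23). The other tested Zbtb18 probes differed by 0.43 or less in size in these comparisons, and none was called.

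**Figure D2:**
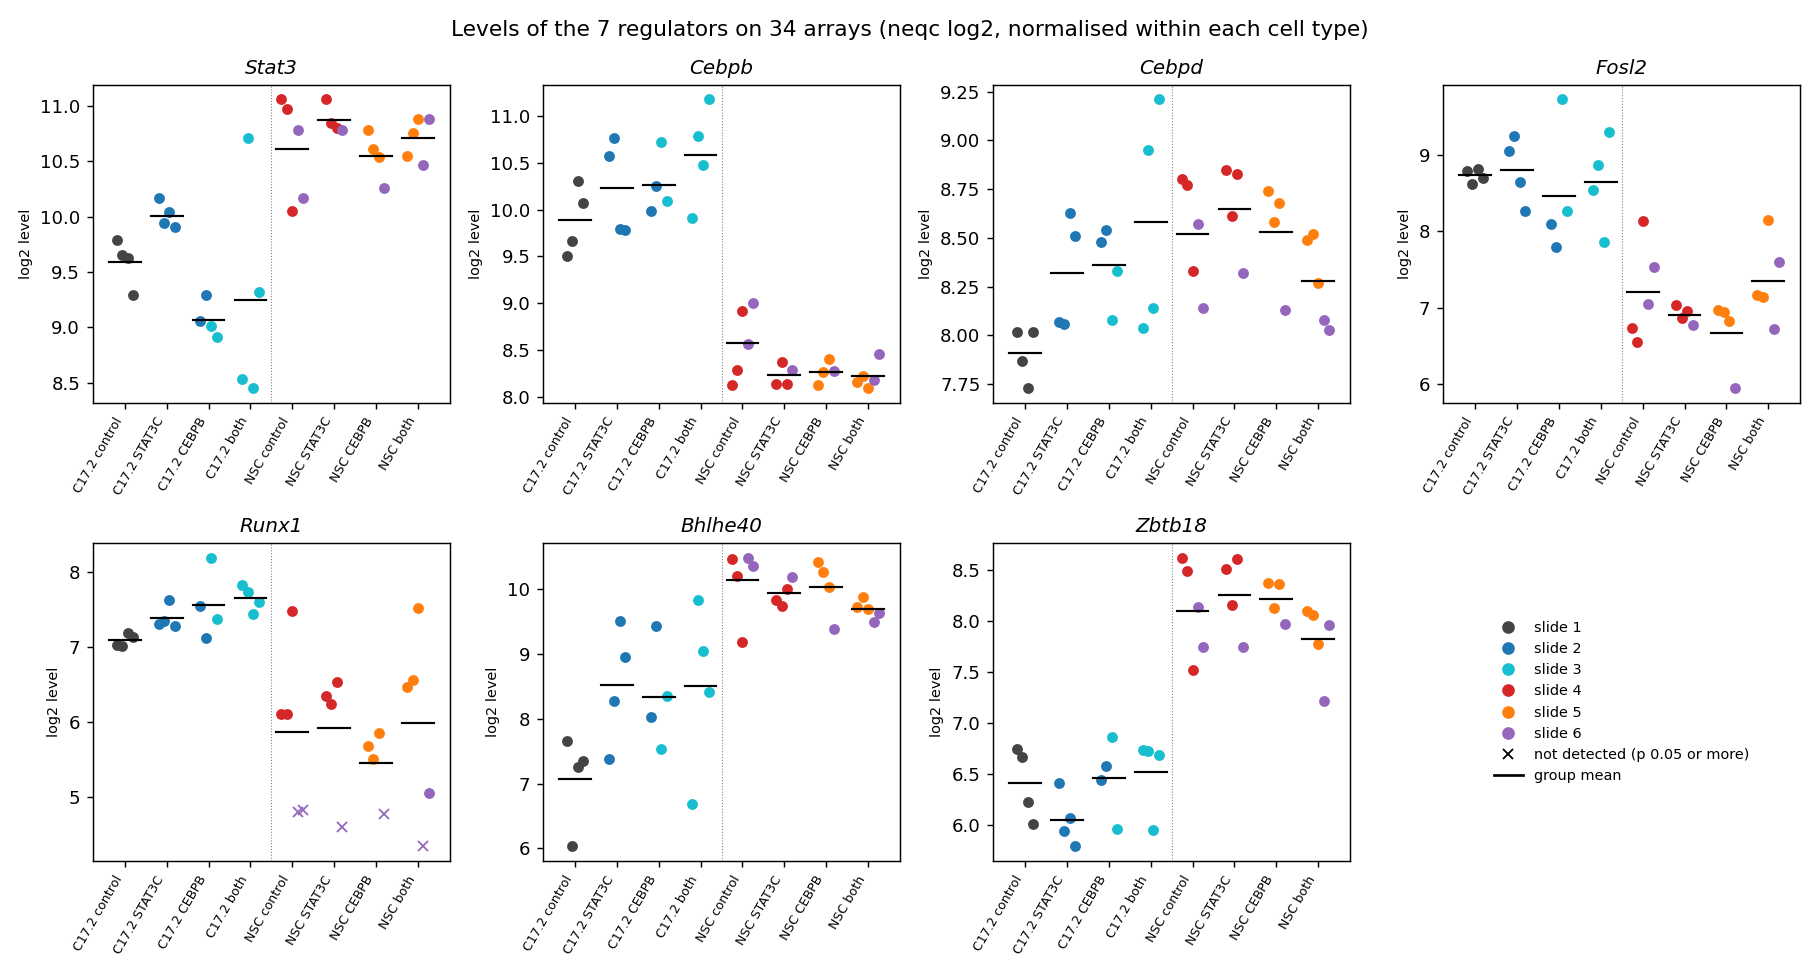
Level of each regulator (y axis, log2, normalised within each cell type) on all 34 arrays by group (x axis), with 1 panel per gene, 1 point per array coloured by slide, crosses for arrays that did not detect the probe and a line at the group mean. In C17.2 the 12 arrays with a factor lie above the 4 controls for Cebpd, the Stat3 arrays with both vectors run from 8.45 to 10.71, and on slide 6 Runx1 was detected on 1 of 6 NSC arrays.

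In NSC again no probe of the 7 regulators was called in the 6 comparisons between vectors (limma, Benjamini-Hochberg over 17374 probes). Of all probes, 0% were called for STAT3C against control, 0.0345% for CEBPB and 2.46% for both vectors, and for both vectors 0.213% against STAT3C alone and 5.73% against CEBPB alone. At an unadjusted p below 0.05 there were 0, 2 and 4 of the 13 member probes, against 5.12%, 8.52% and 15.9% of all probes. Groups overlapped for every member probe in these 3 comparisons, and 1.0%, 1.91% and 2.61% of all probes had groups that did not overlap. Differences above 0 were found for 3, 1 and 2 of the 7 members, against 54.5%, 54.0% and 51.0% of all 10858 genes tested. The medians of the members were -0.13, -0.38 and -0.24, against 0.02, 0.02 and 0.01 over all genes tested.

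Stat3 read 11.06, 10.97, 10.05, 10.78 and 10.17 in NSC controls and 11.06, 10.85, 10.80 and 10.78 with STAT3C. With CEBPB it read 10.78, 10.61, 10.54 and 10.26, and with both vectors 10.55, 10.76, 10.88, 10.47 and 10.88. Controls 3 and 5 were the lowest of all NSC arrays, and every other group overlapped the controls. The differences were 0.24 (SE 0.19, 95% interval -0.16 to 0.64) with STAT3C, -0.08 (SE 0.27) with CEBPB and 0.10 (SE 0.24, 95% interval -0.41 to 0.62) with both vectors. The 3 Stat3 probes parted on controls 3 and 5, where the main probe was low. Probe ILMN_3096144 was high there, at 8.48 and 8.52 against 7.89 to 8.05 on controls 1, 2 and 4. Probe ILMN_2589790 was at the level of those controls on control 3 (9.96 against 9.89 to 9.97) and below them on control 5 (9.29). Its difference with both vectors was -0.03 (SE 0.19, adjusted p = 0.967, limma).

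Without the 4 arrays that lack Xist, slide 6 keeps 1 control and 1 array with both vectors, so the contrasts of CEBPB and of both vectors with control then rest on that pair and are given as values with no test. With both vectors they were 0.71 for Stat3, -0.55 for Cebpb, -0.11 for Cebpd, 0.07 for Fosl2, 0.22 for Runx1, -0.71 for Bhlhe40 and 0.22 for Zbtb18. Those with CEBPB were 0.62 for Stat3, -0.45 for Cebpb, 0.13 for Cebpd, -0.50 for Fosl2, -0.94 for Runx1, -0.24 for Bhlhe40 and 0.53 for Zbtb18. STAT3C shares slide 4 with control, and its differences without those arrays ran from -0.23 (Cebpb) to 0.22 (Zbtb18), with none called.

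Cebpb read 8.12, 8.28, 8.91, 8.56 and 9.0 in NSC controls and 8.12, 8.26, 8.40 and 8.27 with its own vector. With STAT3C it read 8.13, 8.37, 8.13 and 8.28, and with both vectors 8.16, 8.22, 8.09, 8.18 and 8.45. Controls 3, 4 and 5 stood above every array with a factor. The differences were -0.31 (SE 0.15, adjusted p = 0.855), -0.38 (SE 0.21, adjusted p = 0.665) and -0.44 (SE 0.19, 95% interval -0.85 to -0.03, adjusted p = 0.273) for STAT3C, CEBPB and both vectors in limma. On slide 6 alone they were -0.50, -0.51 and -0.47. The single STAT3C and CEBPB arrays there (8.28 and 8.27) lack Xist, as does control 4 (8.56), while control 5 (9.0) has it. Cebpd read 8.80, 8.77, 8.33, 8.57 and 8.14 in controls and 8.49, 8.52, 8.27, 8.08 and 8.03 with both vectors. The STAT3C arrays read 8.85, 8.61, 8.83 and 8.32, and with CEBPB 8.74, 8.58, 8.68 and 8.13. The lowest array of each of the STAT3C and CEBPB groups and the lowest control were on slide 6. Its differences were 0.08 (SE 0.12), -0.11 (SE 0.17) and -0.30 (SE 0.16, 95% interval -0.63 to 0.03, adjusted p = 0.373, limma).

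Fosl2 read 6.74, 6.55, 8.13, 7.05 and 7.53 in NSC controls and 7.17, 7.14, 8.14, 6.72 and 7.60 with both vectors. The STAT3C arrays read 7.04, 6.87, 6.96 and 6.78, and with CEBPB 6.97, 6.94, 6.83 and 5.95. Control 3 and replicate 3 of both vectors, which lie on different slides, stood together above the rest, and CEBPB replicate 4 stood alone below. The differences were -0.29 (SE 0.30), -0.97 (SE 0.42, 95% interval -1.85 to -0.09, adjusted p = 0.532) and -0.21 (SE 0.38) for STAT3C, CEBPB and both vectors in limma. On slide 6 alone the CEBPB difference was -1.34. It sets 1 CEBPB array without Xist (5.95) against the mean of control 4 without Xist (7.05) and control 5 with it (7.53). Runx1 read 6.11, 6.11, 7.48, 4.81 and 4.84 in controls and 6.47, 6.56, 7.52, 4.35 and 5.06 with both vectors. With STAT3C it read 6.35, 6.24, 6.53 and 4.61, and with CEBPB 5.69, 5.51, 5.86 and 4.78. The same 2 arrays were highest, and all 6 arrays of slide 6 were lowest, 5 of them below detection. Its differences from control were -0.20 (SE 0.30), -0.61 (SE 0.42) and 0.17 (SE 0.39). Between both vectors and CEBPB alone, which share slide 5, Runx1 differed by 0.78 (SE 0.30, adjusted p = 0.138) and Fosl2 by 0.76 (SE 0.30, adjusted p = 0.141) in limma. Within slide 5 these differences were 1.16 and 0.57. Without CEBPB replicate 4 the Runx1 difference was called, at 1.16 (SE 0.33, adjusted p = 0.0406, limma), and without the 4 arrays that lack Xist it was 1.16 (SE 0.33, adjusted p = 0.0326).

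Bhlhe40 came closest to a call of the members' main probes. It read 10.47, 10.21, 9.18, 10.49 and 10.36 in NSC controls and 9.72, 9.88, 9.69, 9.50 and 9.64 with both vectors. With STAT3C it read 9.84, 9.75, 10.01 and 10.19, and with CEBPB 10.42, 10.27, 10.04 and 9.39. Apart from control 3, the controls were above every array with both vectors. The difference with both vectors was -0.96 (SE 0.26, 95% interval -1.52 to -0.41, adjusted p = 0.0646, limma), and on slide 6 alone it was -0.85. Without control 3 Bhlhe40 fell by 1.05 on the log2 scale (difference -1.05, SE 0.17, adjusted p = 0.00395, limma). Over 10 omissions of 1 array the difference ran from -1.10 to -0.90, and no other of them gave a Bhlhe40 call. With CEBPB alone the difference was -0.69 (SE 0.29, adjusted p = 0.514) and with STAT3C alone -0.13 (SE 0.20, adjusted p = 0.921). In the comparison of both vectors with control, 149 of all 10858 genes tested were called higher and 134 lower, and single cell type markers were among them. None was called of 4 endothelial, 3 neuron and 3 microglia and macrophage markers tested. Of 9 neural stem cell markers tested 1 was called lower and none higher. Of 7 astrocyte markers tested 1 was called lower (Aqp4, a water channel, at -1.77, SE 0.40) and none higher, and of 4 oligodendrocyte lineage markers 1 was called lower (Mbp, a myelin protein, at -1.07, SE 0.15). The part of these markers in the Bhlhe40 difference was not tested.

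Zbtb18 read 8.62, 8.49, 7.52, 8.14 and 7.74 in NSC controls and 8.10, 8.06, 7.77, 7.21 and 7.96 with both vectors. With STAT3C it read 8.51, 8.16, 8.61 and 7.74, and with CEBPB 8.37, 8.13, 8.36 and 7.97. All groups overlapped, and the differences were 0.09 (SE 0.21), 0.10 (SE 0.30) and -0.24 (SE 0.27). Probe ILMN_3124947 read 8.16, 8.21, 8.68, 7.68 and 7.52 in controls, 8.23, 8.07, 8.24 and 7.62 with CEBPB, and 7.76, 7.72, 7.89, 7.01 and 7.30 with both vectors. On each slide its arrays with both vectors were below the others of that slide. Its difference was -0.50 against control (SE 0.15, adjusted p = 0.0979) and -0.41 against CEBPB alone (SE 0.12, adjusted p = 0.0526) in limma. Without control 3, on which this probe was the highest of all NSC arrays while the main probe was the second lowest, its difference from control was called (-0.46, SE 0.11, adjusted p = 0.0363), and without replicate 5 of both vectors its difference from CEBPB alone was called (-0.44, SE 0.12, adjusted p = 0.0389, limma). Probe ILMN_3049032 gave -0.44 (SE 0.21) against control and -0.49 (SE 0.16, adjusted p = 0.081, limma) against CEBPB, and was called against control without control 5 (-0.74, SE 0.19, adjusted p = 0.0404, limma), which leaves control 4 as the single control on slide 6. Against CEBPB it was called without the 4 arrays that lack Xist (-0.55, SE 0.15, adjusted p = 0.0247, limma). The other 2 probes gave -0.18 (SE 0.17) and -0.02 (SE 0.15) against control.

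**Figure D3:**
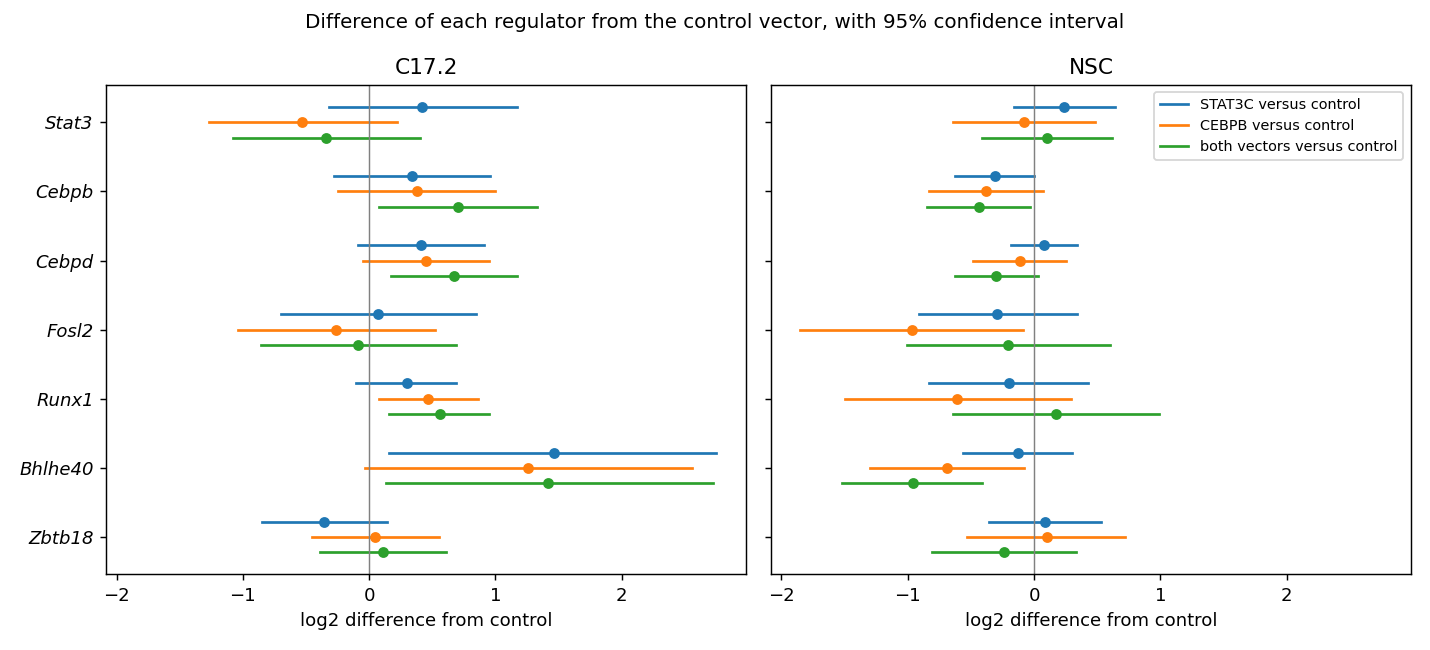
Log2 difference of each regulator from the control vector (x axis), for STAT3C, CEBPB and both vectors in C17.2 (left) and NSC (right), with bars of the 95% confidence interval. Bhlhe40 lies at 1.26 to 1.46 in C17.2 and at -0.96 to -0.13 in NSC, and no difference in the plot passed an adjusted p of 0.05.

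**Figure D4:**
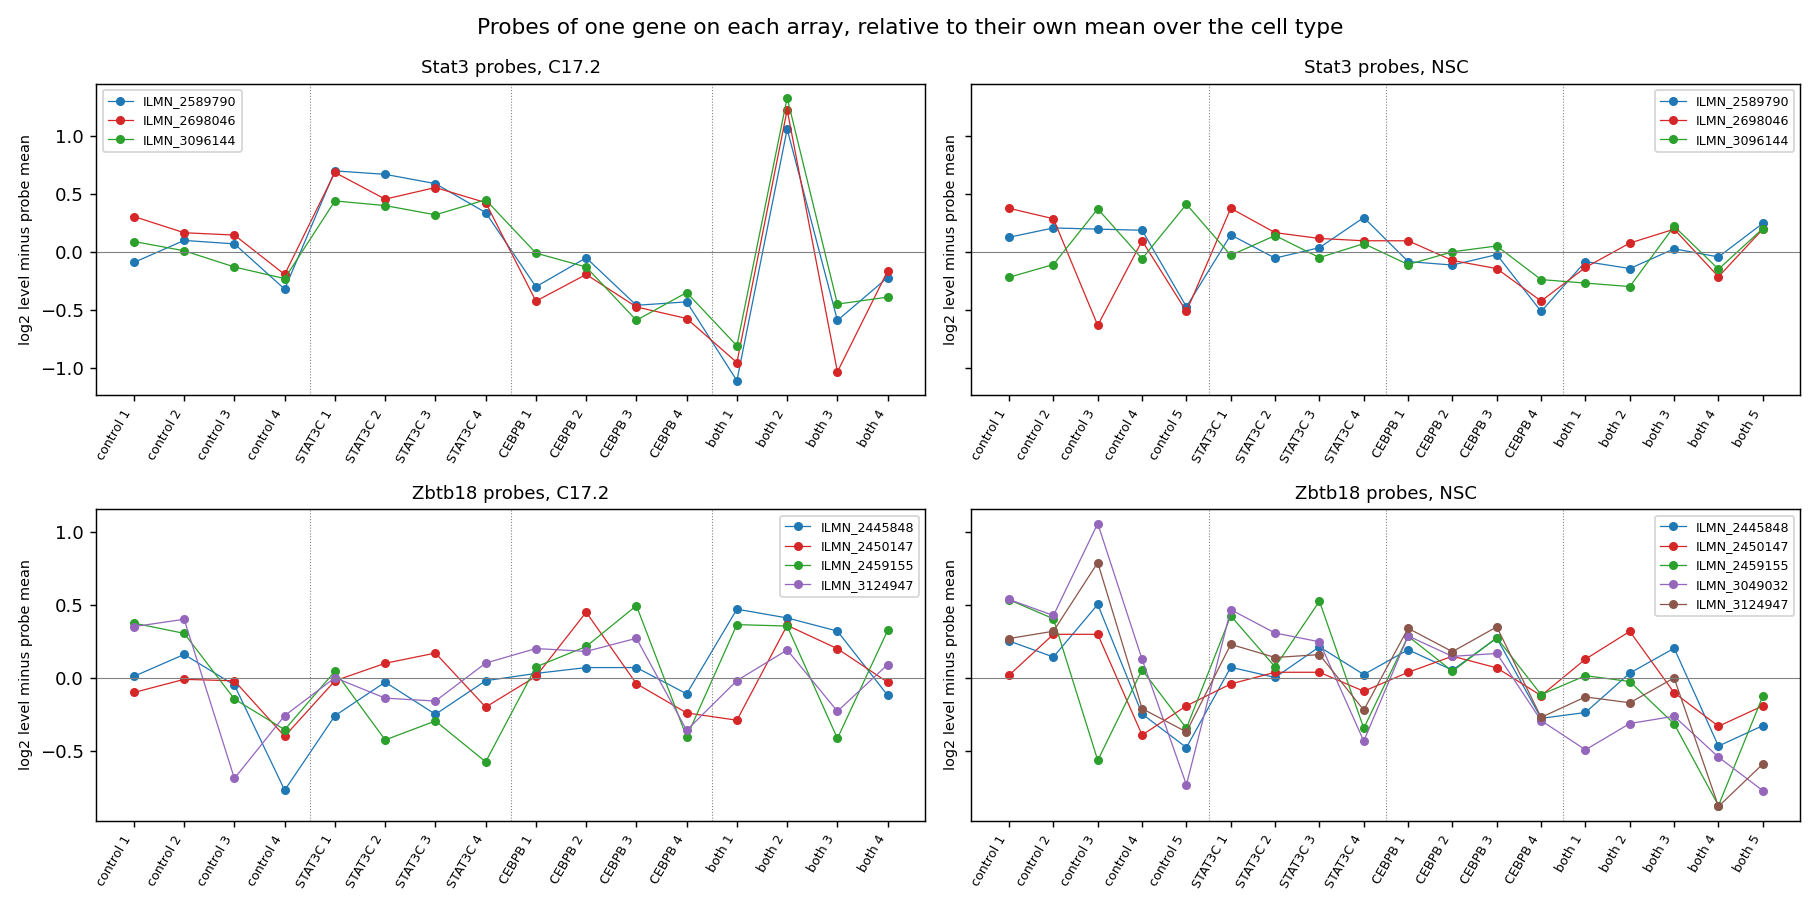
Level of each tested Stat3 and Zbtb18 probe on each array (x axis, by group and replicate) relative to the mean of that probe over the cell type (y axis, log2), with 1 line per probe. The Stat3 probes follow each other in C17.2, with replicate 2 of both vectors high by all 3, and part on NSC controls 3 and 5, and on control 3 the main Stat3 and Zbtb18 probes are low while other probes of the same genes are high.

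Whether the combined vectors acted beyond the sum of the single ones was tested as non-additivity, the change with both vectors minus the changes with each. No member probe was called in C17.2, where 0% of all probes were called and 10.3% had an unadjusted p below 0.05, or in NSC, where 0.0403% were called and 14.1% had an unadjusted p below 0.05. At an unadjusted p below 0.05 there were 0 of 12 member probes in C17.2 and 2 of 13 in NSC (limma). The furthest member values were Bhlhe40 in C17.2 (-1.30, SE 0.86, 95% interval -3.13 to 0.54) and Fosl2 and Runx1 in NSC (1.05, SE 0.42, and 0.98, SE 0.42, adjusted p = 0.279 and 0.314, limma). For Stat3 the values were -0.24 (SE 0.50) in C17.2 and -0.05 (SE 0.27) in NSC.

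Whether a vector changed a regulator by a different amount in C17.2 and in NSC was tested over all 34 arrays. No member probe was called for STAT3C, CEBPB or both vectors, where 0.00529%, 0.312% and 1.07% of all probes were called. At an unadjusted p below 0.05 there were 1, 2 and 5 of 14 member probes, against 10.7%, 14.7% and 14.1% of all probes (limma). For both vectors the change in C17.2 exceeded that in NSC by 2.39 for Bhlhe40 (SE 0.73, 95% interval 0.89 to 3.90, adjusted p = 0.112), by 0.95 for Cebpd (SE 0.29, adjusted p = 0.117) and by 1.11 for Cebpb (SE 0.37, adjusted p = 0.139) in limma. These 3 members had differences above 0 in C17.2 and below 0 in NSC. Without replicate 1 of the C17.2 arrays with both vectors the 3 were called, at 2.96 (SE 0.63, adjusted p = 0.0101), 1.12 (SE 0.28, adjusted p = 0.0302) and 1.32 (SE 0.35, adjusted p = 0.0383). That array stood among the C17.2 controls on the first principal component (-27.2). No other omission of 1 array gave a call in this comparison. For Stat3 (-0.44, SE 0.45), Fosl2 (0.12, SE 0.56), Runx1 (0.36, SE 0.42) and the main Zbtb18 probe (0.36, SE 0.37) the intervals held 0. Zbtb18 probes ILMN_2445848 (0.62, 95% interval 0.08 to 1.16, adjusted p = 0.274) and ILMN_3124947 (0.60, 95% interval 0.01 to 1.19, adjusted p = 0.344) had intervals above 0 and were not called (limma).

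Pathway genes around the 7 regulators were called in few instances when vectors were compared with control. With STAT3C alone 1 of 37 mesenchymal glioma genes was called in C17.2, Mgp, a matrix protein, which was higher by 2.80 (SE 0.35) and was the single call among 9699 genes. Mgp also stands in the fibroblast and pericyte list, where it was the 1 call among 4 tested. With CEBPB alone 88 of 9699 genes were higher and 63 lower, and of the 37 mesenchymal glioma genes 2 were higher, Ccn2 (2.97, SE 0.49) and Itga7 (1.96, SE 0.32), and 1 was lower, Col6a2, at background with CEBPB and at least 3.04-fold higher in control. In NSC neither vector alone gave a call in these lists. In C17.2 with both vectors, 32 of 9699 genes were higher and 27 lower, and none of the tested genes upstream of STAT3 (10), inhibitors of STAT3 (10), STAT3 targets (16) or C/EBP targets (7) was among them. With the same vectors 2 of 37 mesenchymal glioma genes were called higher and none lower: Ccn2, a matricellular protein, at 3.79 (SE 0.49) and the integrin subunit Itga7 at 2.49 (SE 0.32). In NSC with both vectors, 149 of 10858 genes were higher and 134 lower. Lcn2, a secreted acute-phase protein that stands in the STAT3 and the C/EBP target list, was detected on all 5 arrays with both vectors and on no control, and was at least 4.60-fold higher. Of 17 STAT3 targets tested it was the single rise, and Vegfa was the single fall (-1.59, SE 0.22). Ptpn2, a phosphatase that acts on STAT3 and its kinases, was the single call among 8 inhibitors (0.79, SE 0.20). Of 2 RUNX relatives tested, 1 was called higher, by 0.55. Among 32 mesenchymal glioma genes, Ccn2 (2.72, SE 0.45) and Actn1, an actin crosslinker (1.51, SE 0.28), were higher and none was lower.

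The genes whose level was most like that of each regulator were sought over the arrays of a cell type, which share slides and groups, so the correlations are a description. In C17.2, over 16 arrays, the nearest were Tnfsfm13 for Stat3 (r = 0.86), Dpp7 for Cebpb (0.908), Apol9a for Cebpd (0.924), Glb1 for Fosl2 (0.927), Katnal1 for Runx1 (0.845), Elovl1 for Bhlhe40 (0.894) and Sqor for Zbtb18 (0.876). In NSC, over 18 arrays, they were Nufip2 for Stat3 (0.819), Tmem94 for Cebpb (0.918), Iqgap1 for Cebpd (0.937), Tnip2 for Fosl2 (0.884), Lrrc7 for Runx1 (0.96), Ndufb2 for Bhlhe40 (0.877) and Thada for Zbtb18 (0.915). After group and slide were removed, the NSC values were 0.845 for Runx1, whose level followed slide, and 0.948 for Bhlhe40. No regulator had the same nearest gene in both cell types.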

How the data were processed

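Total RNA, 200 ng per array, was hybridised to 34 Illumina MouseWG-6 v2 arrays on 6 slides. Per the file headers, the deposited array files give for each probe a mean bead intensity on a linear scale, a detection p-value, and the number and spread of beads, which are other quantities. Values below 0 occur in the deposited intensity, so background had been subtracted. The authors' series matrix holds normalised values, read here as log2, whose method is not given in the sources used here. BeadStudio and lumi are named in the submitters' processing notes.

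Probes were named through the platform annotation and RefSeq symbols. Intensities were normalised with neqc of limma 3.58.1 (R 4.3.3; offset 16), within each cell type and jointly, and probes with 1 symbol and detection p below 0.05 on at least 4 arrays of the fit were tested with lmFit and eBayes, two-sided, with Benjamini-Hochberg adjustment over all probes tested and calls at 0.05. Slide was a fixed term in the fit of NSC. For a group at background, each array took the lowest normalised value of any detected probe, or its own if higher, to bound the fold. Motifs were searched with Python 3.11.15. The tests were checked on simulated data. Members, lists and tests were chosen with earlier results of these data known. The rule for named genes takes all 7 members and all their probes, up to 3 genes per list with the smallest adjusted p, and the genes with the highest Pearson correlation, of which the first is given. Alternatives are given in the closing section.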

Additional observations from a re-analysis of the deposited data

Results flagged for a closer look

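Within a group, 4 of the 56 combinations of gene and group had 1 array far from the others, judged by its gap to the nearest array over the range of the group, where chance gives about 1 in 20. In C17.2 with both vectors, Zbtb18 on replicate 3 was the lowest at 5.95, against 6.69 to 6.73 on the others. In NSC with CEBPB, Fosl2 on replicate 4 was the lowest at 5.95, against 6.83 to 6.97. In NSC with STAT3C, Runx1 on replicate 4 was the lowest at 4.61 and not detected, against 6.24 to 6.53. In NSC controls, Bhlhe40 on replicate 3 was the lowest at 9.18, against 10.21 to 10.49. The NSC arrays numbered 4 lie on slide 6 and lack Xist signal.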

How the results depend on the processing

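Of 1066 alternative values for 65 results, 1000 were rated as the same. For a difference this meant the same direction and, where tested, the same side of the threshold. For a count of calls it meant an equal or a close count, so that 10 calls in place of 11 between the control arrays was rated the same. No paired analysis was possible because the labels carry no replicate numbers shared between groups. The cause of the changes below was not tested, except that 1 probe per gene, which gave 7 calls between the control arrays, leaves fewer probes to test. With array weights the calls among member probes were 2 in NSC for both vectors against control (Bhlhe40 -1.13, Zbtb18 -0.59), 4 against CEBPB, 2 for non-additivity, and 1, 1 and 2 for the C17.2 against NSC change with STAT3C, CEBPB and both. NSC both against CEBPB gave 1 call in the deposited matrix, 1 with a floor plus 50, and 2 without the 4 arrays that lack Xist. Leaving out those 4 gave 1 for both against control, which rests on 1 array a group (control 5 and replicate 5 of both vectors on slide 6) and is not read as a call. Leaving out 1 array moved the calls between 0 and 1 (C17.2 both against control; NSC both against CEBPB), 0 and 2 (NSC both against control) or 0 and 3 (C17.2 both against STAT3C; C17.2 against NSC, change with both).

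Signs turned for uncalled differences. With array weights these were, in C17.2, Fosl2 with STAT3C (-0.05) and Zbtb18 with CEBPB (-0.01), and in NSC Stat3 (-0.02), Cebpd (-0.01), Fosl2 (0.23), Runx1 (0.17) and Zbtb18 (-0.08) with STAT3C, Zbtb18 with CEBPB (-0.33) and Stat3 with both (-0.26). Without a slide term they were Runx1 with STAT3C (0.06), Cebpd with CEBPB (0.01) and Fosl2 with both (0.15). Without the arrays that lack Xist, where the contrast with control rests on that 1 pair of arrays, they were Stat3 (0.62) and Cebpd (0.13) with CEBPB, and Fosl2 (0.07) and Zbtb18 (0.22) with both. On slide 6 alone, chosen after seeing the data, they were Cebpd (-0.04) and Zbtb18 (-0.20) with STAT3C and Runx1 with both (-0.12). The 1 STAT3C array there lacks Xist and is set against controls with and without it. Leaving out 1 array gave, in C17.2, -0.07 to 0.25 for Fosl2 with STAT3C, -0.08 to 0.22 for Zbtb18 with CEBPB, and -0.31 to 0.17 for Fosl2 and -0.02 to 0.30 for Zbtb18 with both. In NSC it gave, with STAT3C, -0.03 to 0.14 for Cebpd, -0.49 to 0.02 for Fosl2, -0.35 to 0.09 for Runx1, -0.39 to 0.03 for Bhlhe40 and -0.16 to 0.22 for Zbtb18. It gave -0.29 to 0.09 for Stat3 and -0.22 to 0.05 for Cebpd with CEBPB, and -0.10 to 0.28 for Stat3 and -0.46 to 0.01 for Zbtb18 with both. The Cebpd difference between the controls lost its call with no detection filter (adjusted p = 0.0523), no slide term (0.0685) and without the arrays that lack Xist (0.0649, limma). With 4 or 5 arrays a group, the number of arrays limits the precision, and Runx1 in NSC and several further probes lie near background.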
